A study of Capra hircus with 4 samples.

Results

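The region described here is a 3 Mb window of goat chromosome 29, from 8500000 to 11500000 in the positions of the deposited tables, that contains DLG2 and a large set of assembled long non-coding RNA (lncRNA) transcripts. Its members are all transcripts of the table of lncRNAs that lie wholly inside the window, called or not, and there were 269 of them among 226416 in the whole table. The window was chosen from the authors' own calls, because many lncRNAs called lower lie in it. The number and direction of the calls are therefore a description here and were not tested.

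RNA came from endometrium, the inner lining of the uterus, of multiparous Xinong Saanen dairy goats that were synchronised in estrus and mated naturally. The 2 libraries of gestational day 5 are called pre-receptive and the 2 libraries of gestational day 15 receptive. The design lists 20 goats, each 24 months old, of which 10 were sampled per stage. How many of them went into each of the 4 libraries is not stated. The libraries were depleted of ribosomal RNA and strand-specific. The authors compared a set of libraries called T with a set called C, and neither the labels nor the headers used here say which letter is which stage, so directions are given as T against C. The 4 columns of single libraries carry the letters T and C (2 each) but names that match no sample label, and were not used, so no error between replicates stands behind any fold change below and sequencing depth is unknown. The tissue label was likewise not checked against marker genes. As these are bulk samples, fewer cells of a type and less RNA per cell cannot be told apart.

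DLG2 encodes a membrane-associated guanylate kinase, also known as PSD-93, a scaffold protein whose PDZ domains hold glutamate receptors and potassium channels in place at synapses. It is a very long gene. LncRNAs are transcripts without an apparent open reading frame, and some act on neighbouring genes in cis, whereas others are by-products of transcription of the region. In the class codes of the deposited table, u marks an intergenic transcript and x one that overlaps exons of a known gene on the opposite strand.

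Between TMEM126B and DLG2 in the deposited positions lay a stretch of 1401 kb. It held 196 of the 269 members, all of the intergenic class u, and 20 of the 22 calls of the window. All 20 were lower in T, by 2.77-fold to 5.91-fold in the authors' deposited table. The DLG2 locus itself followed, from 10446348 to 11405078 (959 kb), with 0 members inside it. The table held no transcript of an intronic class on any chromosome. Beyond DLG2, 18 members lay in the rest of the window, and the remaining 2 calls were among them. Before the stretch there were 55 members and 0 calls.

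Of the 269 members, 22 were called (8.18%), against a background of 0.295% of all transcripts in the table. Lower calls numbered 21 in the window, where 0.118% of all transcripts listed were called lower. Since the window was picked for its calls, these shares only state how dense they are. The call rests on the authors' unadjusted p. At a q under 0.05 the window held 0 calls, against 12 (0.0053%) among all transcripts, and the smallest q in the window was 0.457 in the authors' deposited table. Chromosome 29 as a whole had 26 lower calls, of which 80.8% lay in the window. The nearest calls outside it were far off, TCONS_00310800 at 6982702 to 6983671 (higher in T) and TCONS_00311825 at 15728512 to 15742714 (lower in T). The members nearest the edges of the window, TCONS_00316061 and TCONS_00316264, were not called, so the choice of edges cut through no run of calls.

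**Figure D1:**
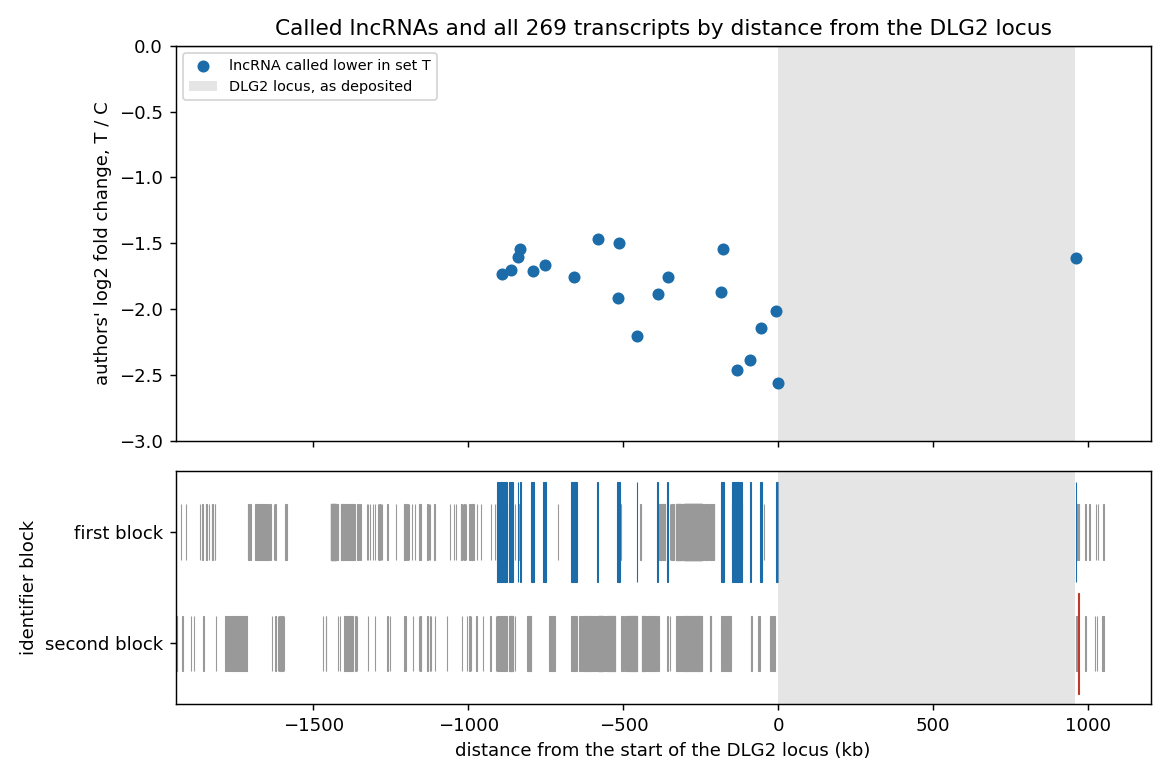
The upper plot gives the authors' log2 fold change (T over C) of the 21 lower calls by distance from the start of the DLG2 locus in kb, and the lower plot shows all 269 members as bars, with lower calls in blue, the 1 higher call in red and the others in grey, in the first and the second identifier block. The grey area is the DLG2 locus. The lower calls lie in the first block, and those nearest the start of DLG2 include the largest changes.

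Of the 21 lower calls, 20 lay before DLG2, in a longer run of 13 and a run of 7. Calls were joined into a run where the next began no more than 100 kb further on. The first run reached from 9539384 to 10091965 and its log2 fold changes went from -1.47 to -2.20, with a median of -1.71 (3.27-fold lower) in the authors' deposited table. The second run, from 10259844 to 10446226, ended beside DLG2 and had log2 fold changes from -1.54 to -2.56, with a median of -2.14 (4.41-fold lower) in the authors' deposited table. The ranges of the runs overlap. Across the 20 calls the changes were larger towards DLG2 (Pearson r = -0.68 and Spearman rho = -0.64 between position and log2 fold change). This is a description over transcripts that come from the same libraries, and of values by which the window was chosen. It holds for called transcripts only, as uncalled members have no fold change here. The lower call on the other side, TCONS_00311248, is not among the 20. It lay 254 bp from DLG2 and had a log2 fold change of -1.61 in the authors' deposited table, smaller than the median of either run. Among the 20 calls, the log2 fold change showed little relation to the length of the deposited locus on a log scale (Pearson r = 0.09). The authors' p, however, tended to be smaller at longer loci (Spearman rho = -0.37 between length and p).

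The lncRNA closest to DLG2 had the largest change among the 21 lower calls. TCONS_00311239 (10443032 to 10446226) ended 122 bp before the DLG2 locus and was 5.91-fold lower in T in the authors' deposited table, a log2 fold change of -2.56. Its p of 0.0063 was the smallest of the window and its q was 0.457, as listed in the authors' deposited table. Its neighbour TCONS_00311238 (10438023 to 10442252), at 4096 bp from DLG2, was 4.03-fold lower (p = 0.018 in the authors' deposited table). Only 780 bp separated the pair, and both are predicted cis regulators of DLG2 by their position.

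Further from DLG2, still in the second run, TCONS_00311228 (10387582 to 10392951) was 4.41-fold lower and TCONS_00311221 (10353808 to 10356676) 5.23-fold lower (p values of 0.0073 and 0.00685, respectively, from the authors' deposited table). These lie on either side of LOC102169647, a BTF3-like sequence. TCONS_00311215, whose locus of 34802 bp from 10295338 to 10330140 was the longest of any call in the window, was 5.51-fold lower (p = 0.0176 in the authors' deposited table). Its gene identifier held 2 other transcripts of the table, TCONS_00311216 and TCONS_00311218, and neither was called. TCONS_00311213 and TCONS_00311212, at the far end of the run and 505 bp apart, had the smallest changes in it, 2.91-fold and 3.65-fold lower (p values of 0.032 and 0.0317, from the authors' deposited table).

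In the first run the changes were more uniform. The smallest p belonged to TCONS_00311118 (9648941 to 9659080), which was 3.27-fold lower (p of 0.0101 and q of 0.513 in the authors' deposited table). TCONS_00311130, TCONS_00311100, TCONS_00311121 and TCONS_00311106 were close to it, between 3.17-fold and 3.38-fold lower, with p from 0.0112 to 0.0142 in the authors' deposited table. These 5 include the longest loci of the run, up to 32865 bp for TCONS_00311100 at its outer end. The largest change in the run was that of TCONS_00311151, the shortest locus in it (1642 bp, 9990103 to 9991745), which was 4.61-fold lower (p = 0.0345 in the authors' deposited table). TCONS_00311144 and TCONS_00311145 lay 85 bp apart, the shortest gap in the window, yet were listed 3.77-fold and 2.82-fold lower in the authors' deposited table. The spread between such close neighbours is thus of the size of the spread along much of the run, and no replicate error is at hand to judge it. The other 5 calls of the run, TCONS_00311111, TCONS_00311113, TCONS_00311135, TCONS_00311159 and TCONS_00311168, were 2.77-fold to 3.70-fold lower, with p from 0.0316 to 0.0490 in the authors' deposited table.

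The 2 calls beyond DLG2 went in opposite directions. TCONS_00311248 (11405332 to 11406401) began 254 bp after the DLG2 locus and was 3.06-fold lower (p = 0.044 in the authors' deposited table). TCONS_00316253 (11414767 to 11415736) was listed at 0 in C and higher in T (p = 0.0064, from the authors' deposited table). It was the 1 higher call of the window. No fold is given for it, as one set was listed at 0.

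Set against all calls of the table, the changes in the window were moderate. The 21 lower calls had a median log2 fold change of -1.76 (3.38-fold), and the 237 lower calls of the whole table that were above 0 in both sets had a median of -1.94 (3.84-fold), both taken over the authors' deposited table. Of the 21, 6 were larger than that median, and 5 of these lay in the second run. None of the 21 was listed at 0 in T. In the authors' deposited table, p was below 0.01 for 4 of the 22 calls, all of them within 100 kb of DLG2 and including the higher call beyond it.

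**Figure D2:**
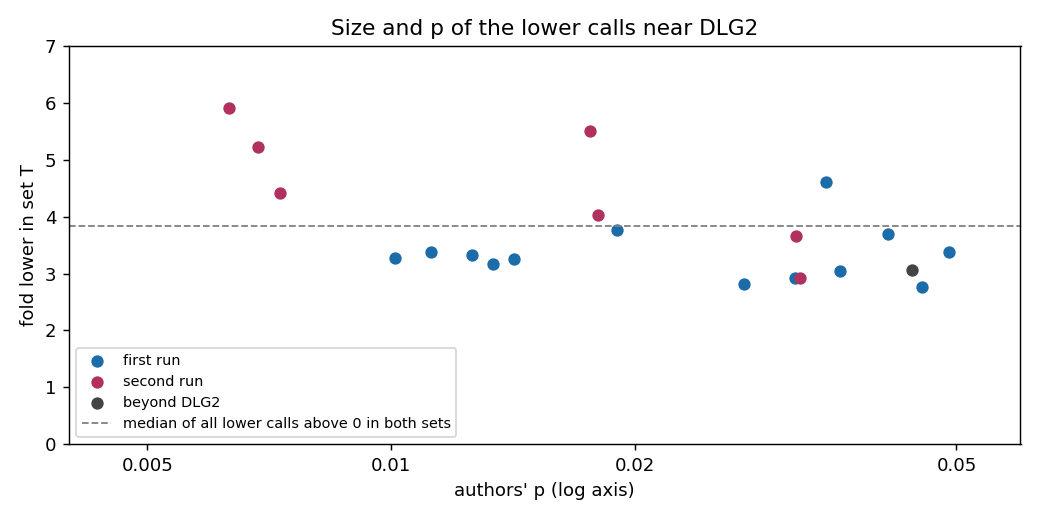
Each point is 1 of the 21 lower calls, with the authors' p on a log axis and the fold by which it was lower in T. Points are coloured by run, and the dashed line is the median of all lower calls of the table that were above 0 in both sets (3.84-fold). The 3 lower calls of smallest p belong to the second run and lie above the line.

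The lower calls of the window shared a strand. The columns used here do not name the strand, but on each chromosome the transcript identifiers form a first and a second block, each ascending with position. In 66 of 66 genes that had both transcripts of class x and transcripts of class j, which share a splice junction with the gene, the classes fell in different blocks, so the blocks separate the strands. Which block is the plus strand is not given. On chromosome 29 the window had 158 members in the first block and 111 in the second. All 21 lower calls were in the first block, as were all 4 DLG2 transcripts named in the target table, and 0 members of the second block were called lower. In the whole table, 158 lower calls were in first blocks and 109 in second blocks. Calls of either direction made up 0.263% of all second-block transcripts, so 0 lower calls among 111 is near what the whole table shows.

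Within the stretches of both runs, members of the other strand were as frequent as those of the first block but were not called. The runs together held 36 members of the first block, of which 20 were called (55.6%), and 43 of the second, of which 0 were called. In the first run 13 of 26 first-block members were called and in the second run 7 of 10. Since the runs begin and end at called first-block members, these first-block shares are raised beforehand. Over the whole stretch before DLG2, 20 of 115 first-block members were called (17.4%), against 0.326% of all first-block transcripts of the table. At the loci of the lower calls, 12 other members were listed, 8 of them in the second block and thus on the opposite strand at the same position. Of these 12, 0 were called, which is near the share of 0.295% among all transcripts of the table. The 16 first-block members of the runs that were not called had a median locus length of 2902 bp, and the called ones 4218 bp. The runs differed in this. In the first run the medians were 2847 bp (not called) and 4207 bp (called), but in the second run 34802 bp (3 members not called) and 4229 bp (called). A deposited locus can span several overlapping transcripts, so its length is an upper limit for that of a transcript.

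The gap between the runs was not empty. These 168 kb held 39 members, 30 of them in the first block, and 0 calls. At 10143050 to 10200744 a single locus of 57694 bp held 12 members, 10 in the first block, more than any other locus of the window. Nor was the stretch from the TMEM126B antisense locus to the first run empty, with 78 members on 494 kb, 49 in the first block and 0 calls. Both counts of 0 calls are fixed beforehand, since every call before DLG2 belongs to a run. The uncalled members next to the runs were TCONS_00316155 before the first and TCONS_00311170 after it, and TCONS_00311209 before the second. For members that were not called, the columns used here hold no fold change and no p. How close they came to a call is thus unknown here.

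**Figure D3:**
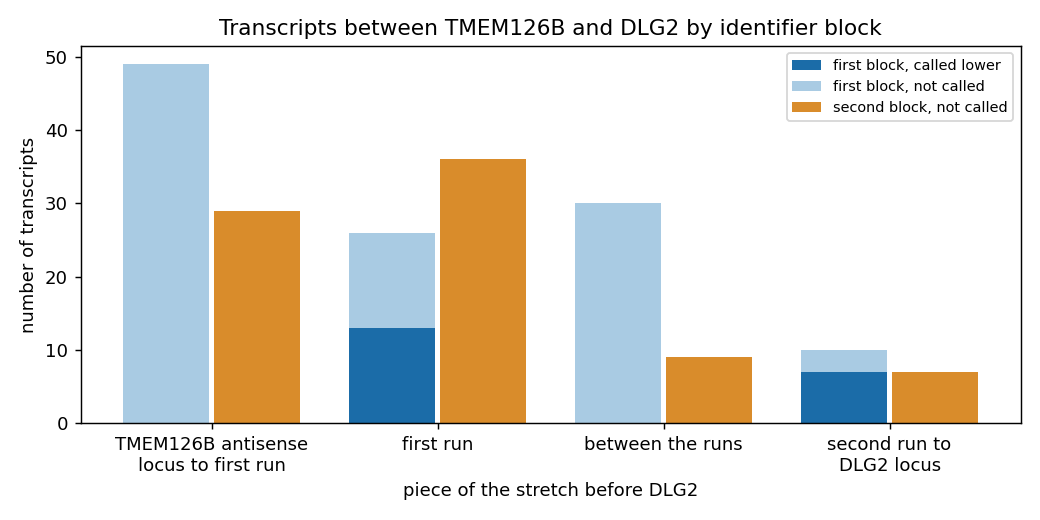
Bars count the transcripts in 4 successive pieces between the TMEM126B antisense locus and DLG2, by identifier block and by call. Calls are present in the first block of both runs (13 of 26 and 7 of 10), with 0 in the second block. Of all second-block transcripts of the table, 0.263% were called. The 0 in the other pieces is fixed beforehand, since every call of the stretch belongs to a run. The first-block shares within the runs are raised by the same choice, as each run begins and ends at a call.

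By class code the members were intergenic with 9 exceptions. These 9 were antisense to known genes and lay before the stretch, 7 at TMEM126A, 1 at TMEM126B and 1 at CCDC83. TMEM126A and TMEM126B encode mitochondrial membrane proteins that take part in the assembly of respiratory complex I, and CCDC83 a coiled-coil protein. The 9 antisense transcripts were in the first block, so both TMEM126 genes and CCDC83 lie on the strand opposite to DLG2. Of the 9, 0 were called, which is near the share of 0.295% among all transcripts of the table. The 7 transcripts at TMEM126A shared 1 locus of 17066 bp.

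Transcripts of the window belonged to 259 gene identifiers at 193 deposited loci, of which 150 held a single member and 31 held members of both blocks. There were 89.7 members per Mb, close to the 88.0 per Mb of the rest of chromosome 29. Outside the DLG2 locus the density was 132 per Mb, and in the stretch before DLG2 140 per Mb. These densities leave out the length of DLG2, whereas the 88.0 per Mb was taken over a length that includes genes. They are therefore not comparable with it. The loci of that stretch covered 741 kb of its 1401 kb (52.9%). With each deposited locus counted once, the 134 loci of the stretch had a median length of 1696.5 bp, against 1332 bp in the whole table. Counted once per transcript the medians were 3252 bp and 1424 bp, since long loci held several members. The coding scores of the window were close to those of the whole table, with a median CPC score of -1.13 in both and a median CNCI score of -0.037 against -0.033. The calls had a median CPC score of -1.11.

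The RefSeq annotation of the ARS1.2 goat assembly places the genes in another arrangement. There DLG2 directly follows TMEM126B, with no annotated gene between them, and both LOC102169647 and LOC102175095 lie inside the span of DLG2. In the deposited positions LOC102169647 lies outside the DLG2 locus, at 10363008 to 10363666, among the calls of the second run. The annotation of ARS1.2 therefore has DLG2 on both sides of a gene that the deposited tables place before it. The calls TCONS_00311228, TCONS_00311238 and TCONS_00311239 lie between that gene and the deposited DLG2 locus. By the ARS1.2 gene order alone they would fall inside DLG2, although their class code is intergenic. The sources used here do not give the build of the deposited tables, so the lncRNAs were not placed on ARS1.2. Which of the members between TMEM126B and the deposited DLG2 locus lie within DLG2 as annotated there was not tested.

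Predicted cis targets were listed for 4 of the 22 calls (18.2%), against 38.2% of all calls of the table. They made up 12 pairs with 6 transcripts of 3 genes, all found by gene identifier in the RefSeq table. The 4 DLG2 transcripts share a locus and were all listed lower in T, as their lncRNAs were. The share of all target transcripts listed in the direction of their lncRNA is not given here. Of the 6 target transcripts, 0 had a p under 0.05, where 4.41% of the 816 target transcripts with a direction did. TCONS_00311242 of DLG2 had p = 0.0968 and TCONS_00311241 p = 0.268 in the authors' deposited table. The other 2 DLG2 transcripts, TCONS_00311240 and TCONS_00311244, had a p of 1 in the authors' deposited table, as did 549 of the 816, a value that the headers do not explain. Adjusted over all 816 (Benjamini-Hochberg), the p of TCONS_00311242 was 1.

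The other 2 target genes are pseudogenes in the RefSeq annotation of ARS1.2. LOC102169647, which the deposited table describes as BTF3-like after a subunit of a complex that binds nascent polypeptides, was listed lower, its p being 1 in the authors' deposited table. LOC102175095 was deposited with the same locus as DLG2, and was listed higher, its p also being 1 in the authors' deposited table. TCONS_00311248, 254 bp past the other end of DLG2, had no target listed, although lncRNAs after their target were paired elsewhere in the table (310 of 1009 pairs). TCONS_00316253, 9689 bp past that end, had none either. TCONS_00311228 (53397 bp from DLG2) and TCONS_00311221 (89672 bp) were paired with LOC102169647 but not with DLG2. Of 37 genes of the DLG family and its scaffold partners, among them DLG1, CASK, SHANK1 and GRIN2B, DLG2 was the 1 gene among the predicted targets, which numbered 387 in the whole table. The list was built around DLG2, so its own presence was fixed beforehand, and 0 of the other 36 genes were predicted targets.

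Through DLG2, the pair of lncRNAs at its edge entered 23 of the 744 gene ontology terms that the authors tested. Of these 23, 12 had a p under 0.05, and 20.6% of all terms did. The terms include guanylate kinase activity (p = 0.00413), ionotropic glutamate receptor binding (p = 0.00597) and presynaptic membrane (p = 0.00462) in the authors' deposited table. The smallest p was that of positive regulation of potassium ion transport (p = 0.000298 in the authors' deposited table), followed by endothelial cell proliferation (p = 0.000582 in the authors' deposited table). After Benjamini-Hochberg adjustment over all 744, 2 of the 23 passed 0.05.

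The numbers in these terms count lncRNAs and not genes. For 10 of the 12 terms, TCONS_00311238 and TCONS_00311239 were the only lncRNAs listed, so each term rests on DLG2 alone. Potassium ion transport, for example, had 2 of the 200 lncRNAs with an annotated target, against 8 of 60755 in the background of the authors' deposited table. Basal plasma membrane and presynaptic membrane each had 1 further lncRNA from elsewhere in the genome. The same pair had the T cell receptor signaling pathway as its KEGG entry, with p = 0.819 in the authors' deposited table.

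**Figure D4:**
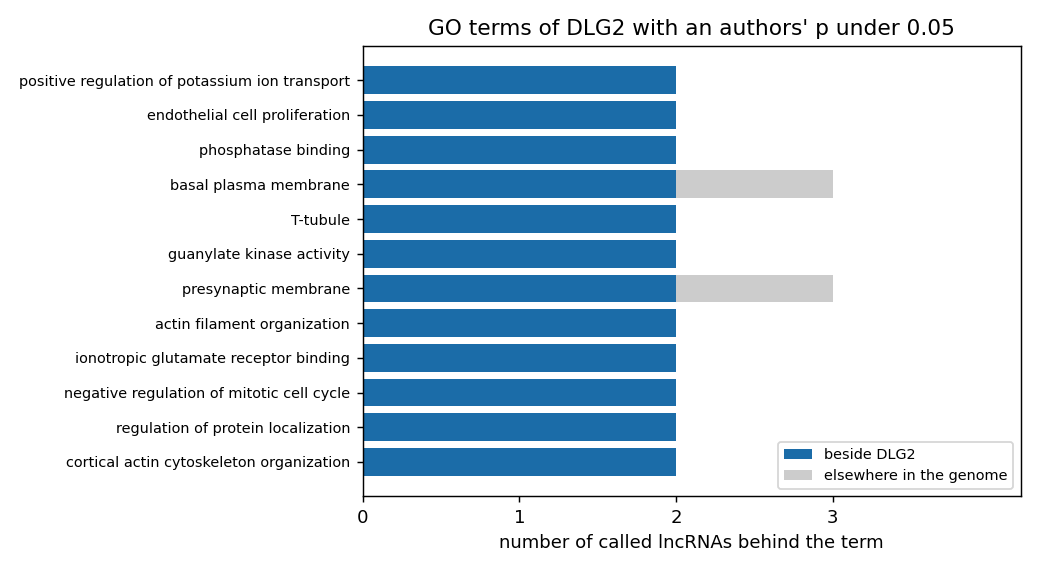
Bars give the number of called lncRNAs behind each of the 12 gene ontology terms of DLG2 with an authors' p under 0.05, ordered by p, with those beside DLG2 in blue and those elsewhere in grey. In 10 terms both lncRNAs lie beside DLG2 and no other contributes.

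Other stretches of the genome also held many neighbouring calls. The window on chromosome 13 from 22000000 to 25000000 held 253 transcripts, of which 18 were called (7.11%), 1 higher and 17 lower. The 17 were all in the first block, with a median log2 fold change of -1.99 in the authors' deposited table. On chromosome 25, from 29000000 to 32500000, 7 of 310 transcripts were called lower, all in the second block. The window of chromosome 4 from 74000000 to 77000000 had 6 calls, all higher. These windows too were chosen for their calls, so their counts stand beside that of chromosome 29 without a test.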

How the data were processed

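The submitters' processing notes name Cuffdiff, Cufflinks, TopHat and TopHat2 without version or role. The genome build of the positions is not stated in the sources used here. CPC and CNCI scores were deposited by the authors for each transcript. For each called lncRNA the log2 fold change (T over C), p-value and q-value were deposited by the authors, per the file headers, as were the distance class of each cis pair and the numbers and p-values of GO terms and KEGG pathways. The 4 columns of single libraries (2 with the letter T, 2 with C) and the 2 of set means carry names that match none of the sample labels; they were not used, so the planned limma fit was not run. Transcripts that the authors list as differential (p under 0.05) are termed calls.

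Computed here were membership by position, runs of calls (gaps of at most 100 kb), distances between deposited loci and identifier blocks, split where the start position dropped most within a chromosome (the split was tested on simulated data). Gaps are start minus end. The table of lncRNAs gives loci but neither exon numbers nor transcript lengths. The members, windows and gene list were chosen with earlier results of these data known. Named were all calls of the window, all their targets, and uncalled members at its edges and beside the runs. The RefSeq table of ARS1.2 served for names and gene order only. No sequence of the build was at hand, so none is shown. Scripts ran under Python 3.11.15 with pandas 2.3.3, numpy 2.4.6, matplotlib 3.10.9 and scipy 1.17.1.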

Additional observations from a re-analysis of the deposited data

How the results depend on the processing

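Of 18 alternatives, 17 kept counts within 1.5 times and the median log2 fold change within 1 SD (0.32) of the calls. The exception was the threshold of a call. At the authors' q under 0.05 instead of their unadjusted p, 0 of the 22 calls in the window were left. Narrowing the window by 500 kb at each end left 20 calls and widening it 22. Each of the 22 calls has its own gene identifier and locus, and the nearest calls outside begin at 6982702 and 15728512. Counting identifiers or loci once, overlap by at least 1 bp and widening could therefore not change the number of calls. The density per Mb divided by the length outside the DLG2 locus, loci counted once, loci of at least 1 kb and the stretch before DLG2 alone were added after seeing the data. Alternatives on exon number, and all planned on values per library (pseudocount, filter, libraries left out), were not run. No paired analysis was possible because the columns of single libraries carry no replicate number of the labels. A test of T against C over those 4 columns was left out, since none could be tied to a labelled sample. Without counts, what depth limits is unknown here.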

Other observations

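The restriction of lower calls to 1 strand was also seen elsewhere in the table. Outside the window there were 16 runs of at least 3 calls that were all lower, with gaps of at most 100 kb, and in 15 of them the calls came from 1 identifier block. The exception was a run of 5 calls on chromosome 4 from 63997607 to 64129581. The largest of these 16 runs held 8 calls, against 13 in the first run before DLG2.

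Of the 140 successive identifiers from the first to the last call of the stretch before DLG2, TCONS_00311100 to TCONS_00311239, 66 were in the table of lncRNAs. The other identifiers, LOC102169647 among them, are not in that table and were not analysed here beyond the target pairs.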
